A study of Rattus norvegicus with 34 samples.

Results

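The segment described here is a stretch of rat chromosome 14, chr14:46000001-47200000 of the Rnor_6.0 build, which the deposited tables divide into 1200 consecutive windows of 1000 bases out of 2782040 in the whole genome. It was chosen because windows in it had read higher in sperm of ifosfamide-lineage males than in control sperm, so every difference from the control given below describes that choice and is no test of it. DNA methylation had been profiled in caudal epididymal sperm of outbred Hsd: Sprague Dawley SD rats by methylated DNA immunoprecipitation followed by sequencing (MeDIP-seq). Only the founder (F0) males were injected, on days 26, 29 and 32 of age. They received either ifosfamide, a chemotherapy drug that alkylates DNA, at 8.5 mg/kg or 1.1 mL/kg of phosphate-buffered saline (PBS), and their uninjected descendants formed the F1 and F2 generations.

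Counts of 18 libraries were used. The F1 control group held 6 pools from the PBS lineage, which descended from 3 F0 males. The F1 ifosfamide group held 6 pools and the F2 ifosfamide group another 6, both descended from 5 treated F0 males. Each F1 pool mixed DNA of 3 to 4 males, and each F2 ifosfamide pool that of 8 or 9. The labels count 43 F2 ifosfamide males, whereas 6 pools without shared animals would need at least 48, so some F2 pools may share males. The other 16 labelled libraries, F2 control among them, were not analysed here, so generation and lineage cannot be told apart in the comparison of F2 ifosfamide with F1 control. The libraries held 23336048 to 39440265 counts, and the highest 10% of windows took between 39.3% and 40.7% of them in every library. Pools are the replicates, and because males of a lineage share few founders the p-values measure the spread between pools only.

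MeDIP captures DNA fragments with an antibody against 5-methylcytosine, the methyl mark placed mainly on cytosines that precede a guanine. The count in a window rises with the density of methylated cytosines and also with the number of copies of that sequence in the genome, because fragments from copies that the assembly joins together align to the same place. Most of the sperm genome is methylated, repeats in particular, while active promoters rich in CpG sites are largely free of the mark. No gene annotation or sequence of the build the files use was at hand, so genes and sequences of the segment are not described.

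The shared rise was a block in the middle of the segment. Signal is given as CPM, the deposited count divided by the library total and by its TMM scaling factor and expressed per 1000000 counts. In 10 kb bins, the smaller of the F1 and F2 log2 ratios over F1 control, lowered by 0.15, was summed, and the contiguous run of bins with the largest sum was taken as the core. Bins with fewer than 100 counts over all libraries were given a ratio of 0 before it was lowered. This gave chr14:46510001-46690000, a stretch of 180 kb with 180 windows. All 18 of its bins read above the control mean in both groups, which the rule favours. The log2 ratio per bin lay between 0.10 and 0.64 in F1 ifosfamide with a median of 0.26, and between 0.10 and 0.52 in F2 ifosfamide with a median of 0.29. In the 95 bins outside the core with at least 100 counts the medians were 0.00 in both groups.

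The borders differed in sharpness. On the left, the last 10 kb before the core had log2 ratios of 0.16 in F1 and -0.02 in F2 at 6.83 CPM in the controls, against 0.32 and 0.52 in the first 10 kb of the core at 15.5 CPM. On the right, signal ended abruptly: the last 10 kb of the core held 57.0 CPM and the next 10 kb held 0.0806 CPM, from 38 counts over all 18 libraries. Of the 70 windows in chr14:46690001-46760000, 56 had no count in any library, so the right border of the rise is also where measurable signal stops. Both border windows themselves held little, 0.0793 CPM on average at 46510001 and 0.409 CPM at 46689001.

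**Figure D1:**
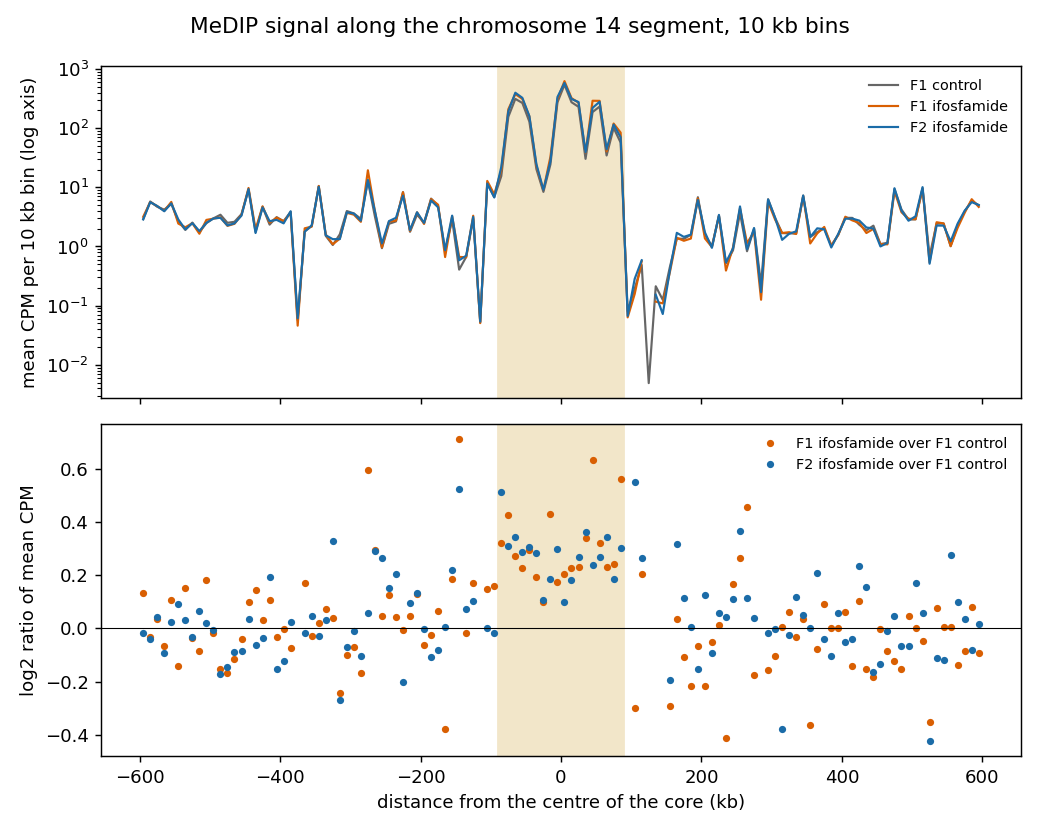
Mean signal of each group in 10 kb bins on a log axis (top) and log2 ratio of the F1 and F2 ifosfamide means over the F1 control mean (bottom), against distance from the centre of the core in kb; the shaded band is the core. The 18 core bins stand far above their surroundings in signal and all lie above 0 in both ratios, whereas ratios outside scatter around 0.

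With 5 kb bins the core ran from 46515001 to 46685000, and with 20 kb bins from 46500001 to 46700000. Leaving out any 1 pool kept the borders in 17 of 18 cases. Without F1 control pool 6, the pool with the lowest signal, the rule chose only 20 kb at chr14:46440001-46460000, so the extent of the rise rests on that control pool. Those 20 kb lie in the weak signal left of the core and hold the highest F1 log2 ratio of any bin outside it, 0.71.

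The core was set apart by its level before any comparison of groups. Its windows averaged 18.2 CPM, against 0.302 CPM in the rest of the segment, a 60.4-fold difference, and 0.359 CPM over the genome. When the genome was divided into 15468 tiles of 180 kb, 0 tiles held more signal than the core. In 0.00647% of the windows it took between 0.227% and 0.382% of each library's counts. It held 89 of the 773 windows of the genome with 10 CPM or more. Its highest window, 46605001, averaged 188 CPM and ranked 16 in the genome. The block was not uniform, however: 19 of the 180 windows had no count in any library and 43 averaged under 1 CPM.

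The summed signal of the core in each pool showed a higher level in both ifosfamide groups and a wide spread among the controls. In F1 control the lowest pool held 2283 CPM, the median was 2813 and the highest held 3681. F1 ifosfamide pools ran from 3220 through a median of 3543 to 3882 CPM. F2 ifosfamide pools ran from 3045 through 3455 to 3735 CPM. The groups overlapped, because F1 control pool 3, at 3681 CPM, stood above 5 of the 6 F1 ifosfamide pools and above 5 of the 6 F2 ifosfamide pools, while control pool 4 held 3186 CPM. Pool 6 held the lowest value of all 18.

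Group means were 2894 ± 489 CPM in F1 control, 3528 ± 244 in F1 ifosfamide and 3433 ± 250 in F2 ifosfamide (SD, n = 6 pools each). On the log2 scale the F1 ifosfamide mean lay 0.30 above the control mean and the F2 ifosfamide mean 0.26 above it, and all 6 pools of each ifosfamide group lay above the control mean. The SD of the control pools was 0.24 on that scale, against 0.10 in F1 and 0.11 in F2 ifosfamide. Without control pool 6 the differences were 0.23 and 0.19, and without control pool 3 they were 0.37 and 0.33. In the latter case the F1 ifosfamide and control pools no longer overlapped. In the rest of the segment the same differences were 0.03 and 0.01, with pools between 295 and 320 CPM, so the rest of the segment did not shift by the amount of the core.

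**Figure D2:**
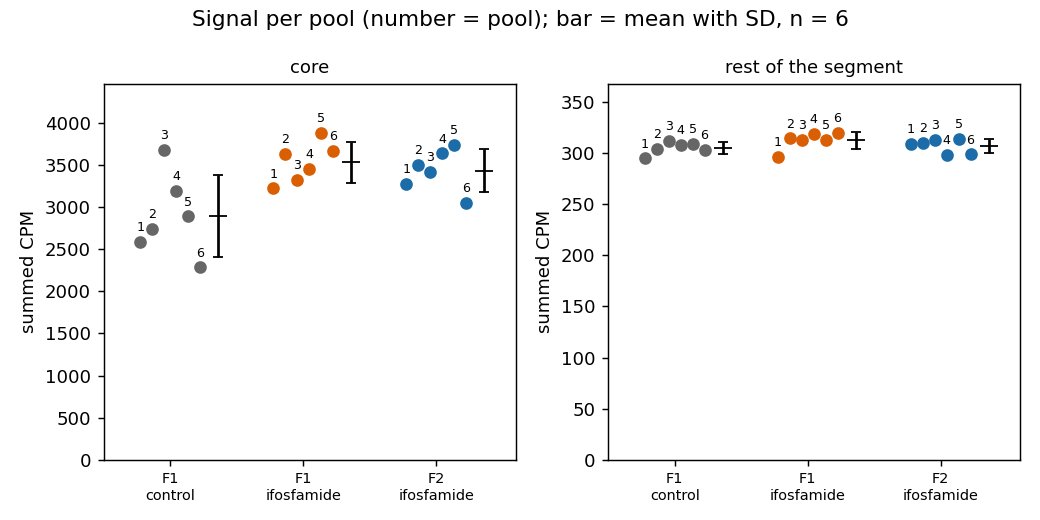
Summed CPM of each pool in the core (left) and in the rest of the segment (right); numbers are pool numbers, and the black marks give the mean and SD of 6 pools. Control pools spread from 2283 to 3681 CPM in the core and the ifosfamide pools from 3045 to 3882, while outside the core all 18 pools lie between 295 and 320.

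F2 ifosfamide lay close to F1 ifosfamide in the core as a whole. The difference of the means was -0.04 on the log2 scale, with SDs of 0.10 and 0.11. The core was drawn from the smaller of the F1 and F2 ratios in each bin, a rule that favours bins in which both are high, so this likeness is a description and no test is read from it. Leaving out each pool in turn gave differences between -0.07 and -0.01.

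Windows of weak and strong signal shifted by like amounts. When the core windows with signal were divided into 3 parts by their mean over all 18 pools, the F1 difference was 0.29 in the low part (53 windows, up to 4.52 CPM), 0.32 in the middle part and 0.30 in the high part (54 windows of 22.7 CPM or more). The F2 differences were 0.29, 0.31 and 0.25. Windows with too few counts to be tested say little: in the F1 comparison only 9 of the 28 held any count, 720 over all 18 libraries, and in the F2 comparison 11 of 30, with 1164 counts. Their differences were -0.00 and 0.03, with SDs among pools of 0.21 to 0.28.

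Pools did not fall into separate levels over the core. Ordered by log2 signal, the 18 pools covered a 1.70-fold range. The largest step between neighbours was 0.18, between control pools 6 and 1, and the median step was 0.02. Counting error alone, which takes reads as independent, was between 0.0038 and 0.0059 per pool. Within groups the largest steps were 0.21 in F1 control, 0.08 in F1 ifosfamide and 0.10 in F2 ifosfamide, and none set off a cluster of pools. A mixture of 3 to 9 males in each pool averages over animals, so a level carried by single animals cannot be read from these values.

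The pools nevertheless largely kept their order from one side of the core to the other. After removing group means, the log2 signal left and right of the midpoint of the core correlated over the 18 pools with Pearson's r = 0.84 (permutation test within groups, p = 4e-05, Benjamini-Hochberg 0.0002 over 5 relations) and Spearman's rho = 0.85 (permutation p = 2e-05). Without control pools 3 and 6, the 2 farthest from the median, r was 0.72 (permutation p = 0.00059). Within single groups r was 0.93 in F1 control (exact permutation p = 0.0111), 0.91 in F1 ifosfamide (p = 0.0139) and 0.78 in F2 ifosfamide (p = 0.0278). Spearman's rho was 0.83 in F1 control (exact permutation p = 0.0583), 0.94 in F1 ifosfamide (p = 0.0167) and 0.89 in F2 ifosfamide (p = 0.0333). The core was drawn from ratios over the control mean, which the low control pool 6 pulls down. Agreement of the control pools on both sides is therefore not independent of that choice, nor are the p-values that include them. The stretches left and right of the core did not follow each other (r = -0.15, permutation p = 0.561). Together they held only 295 to 320 CPM per pool, against 2283 CPM or more in the core. Counting error weighs more in them and lowers a correlation, and its part was not tested.

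Other tiles of 180 kb along chromosome 14 gave the scale of these values. Over 638 tiles the correlation between both sides had a median of 0.16, and 8 tiles reached that of the core. The tiles held a median of 58.7 CPM against 3285 CPM in the core, so counting error weighs more in them. Such error lowers a correlation, and its part was not tested. The within-group SD of the core, 0.16, was reached by 10 tiles, with a median of 0.05. None of the tiles reached the core's signal, its F1 difference or its F2 difference: the highest tile was at 193 CPM, 0.13 and 0.22. The ratios chose the core, and its level entered the rule only through the floor of 100 counts per bin. Its pool-to-pool spread did not enter directly, but the ratios divide by the control mean, which the low control pool 6 pulls down. That spread and the correlation between both sides are therefore not independent of the choice.

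The rise was not a single shift of all windows. The heat map of pools over windows shows stretches in which certain pools stood out, and the same pools stood out again in stretches far from the first. The 137 core windows with at least 1 CPM were therefore grouped by the likeness of their deviations from the group means over the 18 pools (average linkage, distance 1 - r, separated at 0.5). This grouping uses none of the differences between groups. It gave 6 patterns of 5 or more windows, together 122 windows: 48, 19, 18, 16, 13 and 8. With a separation at 0.4, or without control pools 3 and 6, the largest again held 48 windows, and with 0.6 it held 87.

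**Figure D3:**
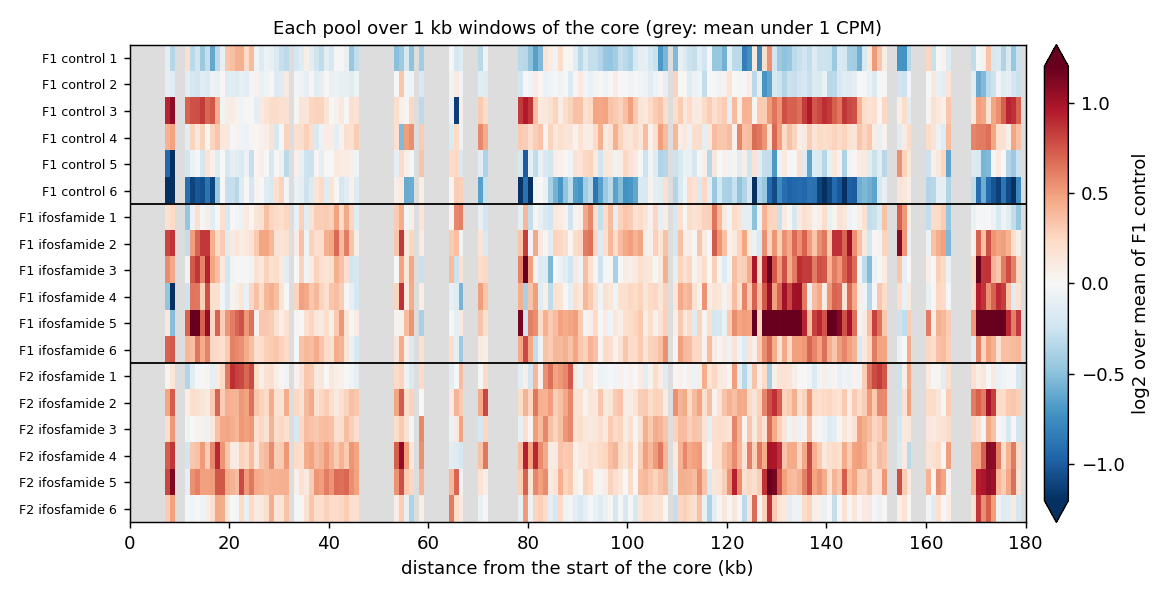
Log2 signal of every pool over the mean of F1 control in each 1 kb window of the core, by distance from its start in kb; grey windows average under 1 CPM. F1 control pool 3 is high and pool 6 low in separated stretches, F1 ifosfamide pool 5 is highest in some of the same stretches, and F2 ifosfamide pool 1 is high in others.

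Pattern 1, with 48 windows between 46521001 and 46689000, had the largest SD of the 6 patterns on the log2 scale in F1 control and in F1 ifosfamide, whereas in F2 ifosfamide patterns 1 and 3 both had 0.21. It recurred in 8 runs. The longest, chr14:46630001-46656000, held 23 pattern 1 windows, with windows of pattern 4 and of no pattern between them. In F1 control the lowest pool held 283 CPM over all 48 windows of the pattern, the median was 490 and the highest held 864. F1 ifosfamide pools ran from 535 through 775 to 1062 CPM, and F2 ifosfamide pools from 533 through 607 to 751. Control pool 6 was low and control pool 3 high, at 0.562 and 1.72 times the control mean taken on the log2 scale. F1 ifosfamide pool 5 was the highest at 2.11 times that mean. The SD on the log2 scale was 0.54 in F1 control and 0.32 in F1 ifosfamide. The differences from the control mean were 0.61 in F1 and 0.30 in F2.

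Pattern 3, with 18 windows, ranked the pools differently. It occupied 4 runs, the longest chr14:46593001-46600000, and another was chr14:46529001-46535000. Control pools ran from 409 through 543 to 621 CPM, F1 ifosfamide pools from 502 through 566 to 772, and F2 ifosfamide pools from 542 through 693 to 839. F2 ifosfamide pool 1, which was the lowest F2 pool in pattern 1, was the highest of all 18 here. It held 1.58 times the control mean taken on the log2 scale. F1 ifosfamide pools 5 and 6 stood above the other 4 F1 pools by a step of 0.34. The mean deviations of patterns 1 and 3 correlated with r = 0.44 over the 18 pools, and those of patterns 3 and 6 with r = -0.23.

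Pattern 2, with 19 windows, held the strongest signal, an average of 897 CPM summed over them, and its longest run was chr14:46600001-46612000. Control pools 6 and 1 were lowest there, at 0.716 and 0.799 times the control mean taken on the log2 scale, with a step of 0.34 to the next control pool. F1 and F2 ifosfamide lay 0.23 and 0.15 above the control mean. In pattern 5, with 13 windows, the control SD was only 0.09 and all 6 F1 ifosfamide pools lay above all control pools, by 0.30 on average. F2 ifosfamide lay 0.29 above and overlapped through its pool 1. Patterns 4 and 6 had differences of 0.21 and 0.23 in F1 and of 0.33 and 0.28 in F2. Ratios above the control mean were seen in all 6 patterns, although the pools that carried them differed. The core was chosen for such ratios, so their presence in every pattern is no result.

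**Figure D4:**
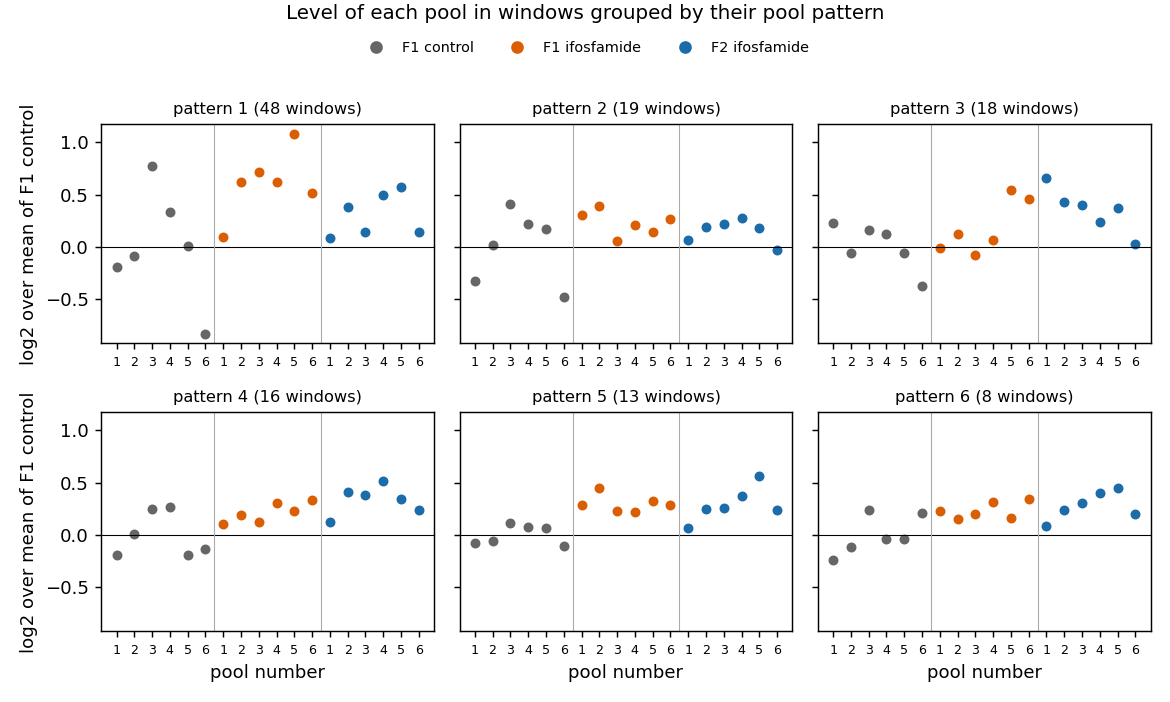
Log2 signal of each pool over the F1 control mean, summed over the windows of each of the 6 patterns; pool numbers are on the x axis and colours mark the groups. Pattern 1 spans a 3.76-fold range with control pool 6 lowest, pattern 3 has F2 ifosfamide pool 1 highest, and in pattern 5 the 6 control pools lie within 0.22 of each other.

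The largest step between neighbours among the 18 pools differed between patterns. In pattern 1 it was 0.64, between control pools 6 and 1, with a median step of 0.06. In pattern 3 it was 0.30, between control pool 6 and F1 ifosfamide pool 3, so control pool 6 alone lay below it in both patterns. In pattern 2 it was also 0.30, with control pools 6 and 1 below it. In patterns 4, 5 and 6 it was 0.14, 0.12 and 0.12, smaller than the 0.18 of the whole core. Over the 137 windows, control pool 6 was the lowest control in 55.5% and control pool 3 the highest in 51.1%. Over all 183371 windows of the genome with at least 1 CPM the same shares were 17.2% and 18.3%. The extent of the core rests on control pool 6 reading low, so its share follows in part from the choice. Windows of a pattern vary together and are not independent, and these shares were not tested.

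F2 against F1 ifosfamide was tested in each pattern with the exact permutation test (two-sided). The patterns lie in the core, whose rule used the means of both groups, so a small difference is not read as likeness. The difference was -0.30 in pattern 1 (exact p = 0.0758, adjusted 0.273 over 6 patterns by Benjamini-Hochberg) and 0.12 in pattern 4 (exact p = 0.0909, adjusted 0.273). In pattern 3 it was 0.17 (exact p = 0.232), and in patterns 2, 5 and 6 it was -0.08, -0.01 and 0.05. No pattern passed the adjusted threshold of 0.05. In pattern 1, leaving out 1 pool gave differences between -0.41 and -0.21 and unadjusted exact p between 0.0108 (without F1 ifosfamide pool 1) and 0.158 (without F1 ifosfamide pool 5). It was 0.0498 without F2 ifosfamide pool 5.

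Tests of single windows were fitted over the whole genome with edgeR's quasi-likelihood test, and a window was called at a Benjamini-Hochberg adjusted p below 0.05. Against F1 control, 14 of the 457 tested windows of the segment were higher in F1 ifosfamide and 0 were lower, where 0.00546% of all tested windows were called higher and 0.0543% lower. Of these, 13 lay in the core and the other at 46330001. All 13 in the core belonged to pattern 1. In F2 ifosfamide 8 of 429 tested windows were higher and 0 lower, all 8 in the core, where 0.0186% of all tested windows were called higher and 0.0125% lower. Of these 8, 6 belonged to pattern 1. The segment was chosen from these contrasts, so nothing is read from the shares. Among the tested core windows the median log2 fold change was 0.25 in F1 and 0.24 in F2, against 0.01 and -0.00 over all windows tested.

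The counts of calls depended on the filter and on single pools. With a minimum count of 30 in place of 10, 1 window of the segment was called in the F1 comparison and 0 in the F2 comparison by edgeR, with 60 and 65 windows at an unadjusted p under 0.05. DESeq2 called 5 in each. In the F1 comparison 32 windows were called without control pool 3, 24 without F1 ifosfamide pool 1, 8 without control pool 5, 3 without F1 ifosfamide pool 5, 2 without F1 ifosfamide pool 3, and 1 each without control pool 2 or 6. In the F2 comparison 15 were called without F2 ifosfamide pool 1, 13 without control pool 3 and 12 without control pool 4. Only 5 were called without F2 ifosfamide pool 6, 4 without control pool 6, 3 without F2 ifosfamide pool 3, 2 each without control pool 5 or F2 ifosfamide pool 2 or 4, and 1 each without control pool 2 or F2 ifosfamide pool 5. In every core window called in either comparison the pools of the ifosfamide group and of the control overlapped.

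Windows 46638001 and 46682001 were called in both comparisons with the control. At 46638001 the signal was 1.27 ± 0.516 CPM in F1 control, 2.41 ± 0.864 in F1 ifosfamide and 2.17 ± 0.675 in F2 ifosfamide (SD, n = 6 each). The log2 fold changes were 0.91 ± 0.18 (SE, edgeR adjusted p = 0.0103) and 0.76 ± 0.16 (adjusted p = 0.0286). At 46682001 the values were 2.81 ± 1.12, 4.67 ± 1.49 and 4.80 ± 1.27 CPM, with edgeR adjusted p = 0.0291 in F1 and 0.00243 in F2. Both are windows of modest signal in pattern 1, and their F1 and F2 levels were alike within the SDs.

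Of the other windows called in the F1 comparison, the 5 with the lowest p were 46330001, 46525001, 46637001, 46644001 and 46680001, with log2 fold changes of 1.07, 0.74, 0.82, 0.80 and 0.88. The strongest of them, 46644001, held 15.3, 27.8 and 46.1 CPM in the lowest, median and highest control pool. In F1 ifosfamide the same 3 values were 31.3, 48.3 and 77.8 CPM, and in F2 ifosfamide 27.7, 31.0 and 39.2 CPM. F2 pools there sat near the control median, and the F2 log2 fold change was 0.12 (edgeR adjusted p = 0.830).

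The corresponding 5 windows of the F2 comparison were 46527001, 46534001, 46591001, 46639001 and 46683001, with log2 fold changes of 0.56, 0.55, 0.56, 0.69 and 0.68. Their F1 changes were 0.30, 0.25, 0.25, 0.66 and 0.58, and none of those passed. The 3 windows of the strongest signal, 46605001, 46610001 and 46622001, were called in neither comparison, with F1 log2 fold changes of 0.15, 0.27 and 0.26 and F2 changes of 0.07, 0.13 and 0.28. Just inside the threshold lay 46681001 in F1 (adjusted p = 0.0464 by edgeR) and 46518001 in F2 (0.0465). Just outside lay 46645001 (0.0713) and 46631001 (0.0828).

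The authors' deposited table called 5 windows of the segment higher in F1 and 4 higher in F2, at adjusted p below 0.05, and 0 lower in either, out of 436 with a p-value in each. Over all windows with a p-value, the authors' deposited table called 0.00363% higher and 0.0188% lower in F1, and 0.0107% higher and 0.0109% lower in F2. These contrasts also chose the segment, and nothing is read from the shares. In the authors' deposited table the lowest adjusted p of the segment was 1.56e-05 in F1, at 46551001, and 0.00142 in F2, at 46593001. Both windows lie in the core. In the edgeR fit used here they were not called: 46551001 had a log2 fold change of 0.45 in F1 (adjusted p = 0.218) and 46593001 one of 0.47 in F2 (adjusted p = 0.131).

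In the comparison of F2 with F1 ifosfamide, 22 of 464 tested windows of the segment were called, 5 higher and 17 lower in F2, where 2.15% of all tested windows were called, 1.25% higher and 0.898% lower. The core held 2 of the higher and 11 of the lower calls among its 152 tested windows, or 8.55%, and the rest of the segment 9 calls among 312, or 2.88%. All 11 lower calls in the core belonged to pattern 1, which also held the F1 calls. With a minimum count of 30, which leaves windows of stronger signal, 15 of 140 core windows were called, or 10.7%, and 3 of 70 in the rest of the segment, where 6.94% of all tested windows were. The gap between the core and all tested windows was thus narrower among windows of stronger signal, and it was not tested. The F1 ifosfamide pools enter both comparisons, so the 2 sets of calls are not independent. The count was 13 without F1 ifosfamide pool 3 and 13 without F2 ifosfamide pool 3, and lay between 13 and 31 over all pools left out.

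The 5 windows with the lowest p in that comparison were 46040001, 46525001, 46644001, 46651001 and 46652001. Their log2 fold changes, F2 over F1 ifosfamide, were -1.04, -0.58, -0.68, -0.59 and -0.56. At 46525001 the means were 21.5 ± 7.71 CPM in F1 control, 35.9 ± 7.72 in F1 ifosfamide and 24.1 ± 3.56 in F2 ifosfamide (SD, n = 6 each; edgeR adjusted p = 0.00353 for F2 against F1). At 46644001 the adjusted p was 0.00125. Window 46040001 lies far left of the core and held under 1 CPM, with 0.917 ± 0.211 CPM in F1 ifosfamide and 0.435 ± 0.0970 in F2 ifosfamide. The 4 in the core belong to pattern 1, the pattern in which the control pools varied most (SD 0.54 on the log2 scale).

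Some windows elsewhere in the genome varied between pools much as core windows did. For each of the 137 core windows, the window with the most similar within-group deviations was sought among 183133 windows with at least 1 CPM, leaving out the core and 1 Mb on each side. These correlations run over the same 18 libraries and are descriptions, chosen after seeing the values. The best match reached r of 0.95 or more for 27.0% of the core windows, against 2.64% of 7324 windows in the rest of chromosome 14. The median best r was 0.92 in the core and 0.89 in those other windows, so a best match near 0.9 is common in a search of this size. The core windows also held more signal, a median of 16.0 CPM against 1.37 CPM, and the part of signal in the closeness of the matches was not tested. For 70 core windows it lay at 1 of 6 loci, and for 56 without control pools 3 and 6. These loci were picked for their likeness to core windows, which fixes that many best matches lie there, so the count is no result.

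The 6 loci, those with at least 4 windows at r of 0.9 or more to a core window, were short blocks of strong signal. The largest was chr1:11903001-11975000, with 29 such windows and 15.1 CPM per window. Chromosome 6 held chr6:30628001-30647000 with 16 windows at 13.7 CPM and chr6:31047001-31070000 with 14 windows at 26.5 CPM. The others were chr5:91126001-91141000 with 12 windows, chr1:38431001-38446000 with 5 and chr19:5820001-5833000 with 4.

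The likeness was close pool by pool. Core window 46644001 and the window at chr1:11968001-11969000 had r = 0.99 over the 18 pools, and also without the 2 pools farthest from the median. At the chromosome 1 window the control pools ran from 9.74 through 17.9 to 32.5 CPM, F1 ifosfamide from 22.6 through 32.4 to 53.5, and F2 ifosfamide from 18.7 through 21.8 to 25.8. Core window 46531001, of pattern 3, matched chr6:31055001-31056000 with r = 0.99, and F2 ifosfamide pool 1 was the highest in both, at 120 and 93.7 CPM. Core window 46588001 matched chr5:91137001-91138000 with r = 0.99.

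**Figure D5:**
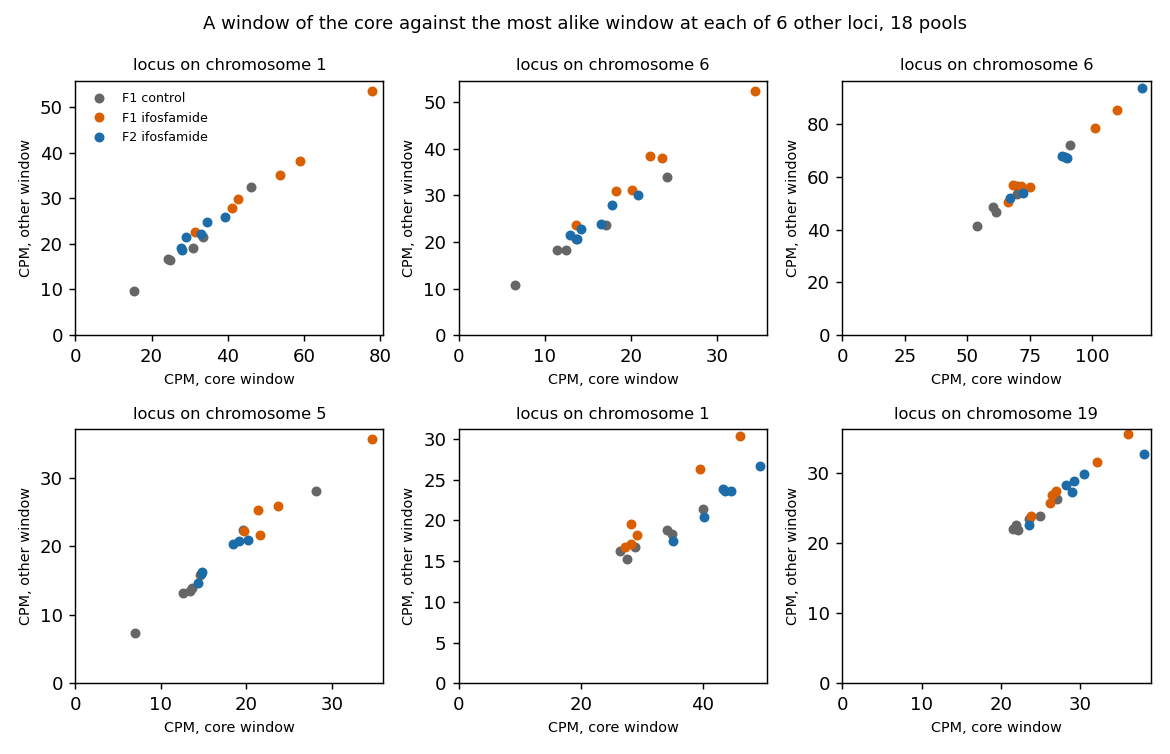
CPM of each of the 18 pools in a window of the core (x axis) and in the most alike window at each of the 6 other loci (y axis), coloured by group. The points follow a line in every panel, with r between 0.96 and 0.99 after group means are removed.

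Patterns also recurred together. Of the 29 windows at the chromosome 1 locus, 18 were most like a pattern 1 window and 5 most like a pattern 3 window, and the pattern 1 matches lay at both of its ends with those of pattern 3 between them. On chromosome 5, 11 of 12 windows matched pattern 1, whereas at chr6:31047001-31070000, 9 of 14 matched pattern 3. Of the 137 core windows, 48 belong to pattern 1 and 18 to pattern 3, so matches to pattern 1 come more easily. The loci were also picked by the same r, and these counts were not tested. Inside the core, 24 of the 137 windows had a partner at least 10 kb away with r of 0.95 or more, for example 46643001 and 46685001, 42 kb apart, with r = 0.98. The loci were picked for varying like the core over the same control pools, and the core for its ratios over those pools, so the direction of their own ratios is not independent of that choice. Their log2 differences from F1 control were 0.36 and 0.31 in F1 and F2 at the large chromosome 1 locus, 0.63 and 0.39 on chromosome 5, and 0.19 to 0.41 and 0.27 to 0.38 at the other 4. The chromosome 1 locus had already come up in earlier results of these same data, so its return here is not independent of them. In the segment outside the core, window 46329001 was the most like pattern 1, with r = 0.86 and 14.2 CPM, next to the called window 46330001. Whether reads of these loci share sequence, and whether copy number or haplotype differed between pools, was not tested.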

How the data were processed

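MeDIP-seq libraries of 18 sperm pools were compared in windows of 1000 bases. The authors deposited raw read counts per window in a table of F1 ifosfamide with F1 control and in a table of F2 ifosfamide with F1 control; the 6 control columns are identical in both. The submitters' processing notes name FastQC, Trimmomatic, Bowtie2, SAMtools, edgeR and the build Rnor_6.0. How reads that align to several places were treated is not given in the sources used here, and it can change counts in repeated sequence. The authors also deposited RPKM values, reads per kilobase of window scaled by library size, and a signal column with their mean count per group; neither was used. The authors' deposited log2 fold change, p-value and adjusted p-value columns were used only where named; the sign of that fold change is control over ifosfamide by the values, and directions were stated as ifosfamide over control.

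From the counts, CPM was computed with TMM factors over all 18 libraries. Group comparisons used edgeR 4.0.16 (R 4.3.3) glmQLFit and glmQLFTest on every window that passed filterByExpr (minimum count 10) in the 2 groups, with Benjamini-Hochberg adjustment over all windows tested, and the same code was tested on simulated data. Differences of summed signal used exact permutation tests, and correlations of both sides of the core 100000 resamples. Tried as alternatives were DESeq2 1.42.0, RLE factors, a minimum count of 30, no filter, a replicate block, a covariate for the share of counts in the highest windows, and each pool left out. A log2 pseudocount of 0.02 CPM was used for patterns.

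The members and lists were chosen with earlier results of these data known. Windows were named by this rule: calls shared by both comparisons with F1 control, the 5 of lowest p in each comparison with F1 control and direction, the 5 of lowest p in F2 against F1 ifosfamide whatever their direction, the 3 of highest signal and the border windows of the core; any other named window was picked from its values. No pools were counted as 1 sample: between pools of a group, chi-square per degree of freedom was 4.25 or more in the core and 1.05 to 1.78 outside it. With 23336048 to 39440265 counts per library, a window of median signal holds 5 to 8 counts, so only stronger windows were tested.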

Additional observations from a re-analysis of the deposited data

Results flagged for a closer look

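A value of 1 pool stood apart in 1 of the 81 groups of 6 pools examined (core, patterns and named windows), where chance flags about 5% of groups. At the right border window 46689001, F2 ifosfamide pool 1 held 0.411 CPM and the other 5 pools between 0.285 and 0.319 CPM. This window has 222 counts over all libraries.

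Of the named windows, 6 were called between F2 and F1 ifosfamide by edgeR's quasi-likelihood test. All but 46330001 were named for their low p in this comparison, and 46330001 for its F1 call, which uses the same F1 pools, so neither their number nor their direction is a result. In the segment 5 windows were called higher and 17 lower in F2, where 1.25% and 0.898% of all tested windows were. The log2 fold changes, F2 over F1 ifosfamide, were -1.04 at 46040001, -0.62 at 46330001, -0.58 at 46525001, -0.68 at 46644001, -0.59 at 46651001 and -0.56 at 46652001. In the last 4, which lie in the core and belong to pattern 1, the F2 means (24.1, 31.9, 8.04 and 11.7 CPM) lay near those of F1 control (21.5, 29.1, 7.52 and 10.8 CPM). The 4 were picked for their low p in this comparison, so that nearness is not a result either. Over pattern 1 as a whole, F2 ifosfamide lay 0.30 above the control mean on the log2 scale and F1 ifosfamide 0.61.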

How the results depend on the processing

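Calls in the segment against F1 control kept their direction, with 1 exception, but not their number. In the F1 comparison 14 calls became 1 with a minimum count of 30, 23 with no filter and 5 with DESeq2, and 1 to 32 with 1 pool left out. In the F2 comparison 8 calls became 0 with a minimum count of 30 (65 windows at an unadjusted p under 0.05 by edgeR), 5 with DESeq2 and 1 to 15 with 1 pool left out, the 15 including 1 lower window. In F2 against F1 ifosfamide 22 calls became 12 with DESeq2 and 13 to 31 with 1 pool left out. The replicate numbers do not pair the pools: same-numbered pools had correlations of -0.30 to 0.14 between groups, and the replicate block gave 13, 17 and 14 calls in the F1, F2 and F2 against F1 comparisons. With the replicate block pattern 1 differed between F2 and F1 ifosfamide by -0.30 at an unadjusted exact p of 0.0312. That is the smallest p that 64 sign flips of 6 pairs can give. It assumes a pairing that the pools do not show, so it is not read as a result. The core log2 ratio ran from 0.23 to 0.37 in F1, 0.19 to 0.33 in F2 and -0.07 to -0.01 for F2 over F1 ifosfamide with 1 pool left out. In untested windows alone, of which 9 to 11 held any count, it was -0.0046, 0.034 and 0.11, the last with the sign turned, and the cause was not tested. The core measured 250 kb with an offset of 0.10 or from F1 alone, 210 kb from F2 alone, and 20 to 180 kb with 1 pool left out. No named window that was called changed sign. Over all pairs of a named window and a setting, calls were lost in 38 of 228 with a pool left out and 18 of 109 others in F1. They were lost in 38 of 216 and 15 of 104 in F2, and in 6 of 228 and 4 of 110 in F2 against F1. These totals include named windows that the main fit had not called, so the share lost among called windows was higher. The correlation of both sides of the core stayed between 0.76 and 0.87 with 1 pool left out, and the pattern 1 difference between -0.41 and -0.21. The largest pattern held 87 windows at a separation of 0.6. Alternatives for the patterns and like windows were chosen after seeing the data. Depth limits windows under about 10 counts, which were not tested, and 16 labelled libraries were not analysed here.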
